A study of Mus musculus with 9 samples.

Results

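The 10 genes described here belong to the unfolded protein response and the integrated stress response, and were taken by name from a table of 17943 genes measured by RNA-Seq in mouse skin. All 10 were in the table, and all 10 were among the 16426 genes that passed the filter on low counts (a sum of at least 10 over the mice). Whole skin from 5 controls and 4 *Supt6*-KO animals was sequenced 10 days after the last injection. The *Supt6*-KO mice carried K14-CreERT and floxed *Supt6* alleles (*Supt6* fl/fl) and were given tamoxifen intraperitoneally over several days in the first resting phase of the hair cycle. The controls were *Supt6* fl/fl mice without Cre and received corn oil, so both groups carry the floxed alleles and the groups differ in Cre and in tamoxifen together. The K14 promoter drives Cre in basal keratinocytes and other K14-expressing epithelia, while the RNA came from whole skin with its dermis. The labels give the tissue as ear and call the controls WT, whereas the study describes dorsal skin, which was lesional in the knockout mice. The study also reports epidermal thickening and neutrophil accumulation in knockout dorsal skin at this time point. The groups therefore differ in the state of the skin as well, and its part in the values below was not tested. Age and sex of the mice are not given in the sources used here. Libraries held 29627341 to 30967107 counts.

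Both responses limit protein synthesis and change transcription when protein folding in the endoplasmic reticulum (ER) or amino acid supply fails. In the integrated stress response, kinases phosphorylate the translation factor eIF2, general translation falls, and the mRNA of the transcription factor ATF4 is translated more. ATF4 and its partner CHOP (*Ddit3*) then act on genes of amino acid supply, redox balance and cell death. In the unfolded protein response, the ER sensors PERK, IRE1 and ATF6 act through ATF4, through spliced XBP1 and through the cleaved ATF6 protein, and raise ER chaperones. Phosphorylation of eIF2, splicing of *Xbp1*, cleavage of ATF6 and translation of *Atf4* are steps that counts per gene do not show. Keratinocytes are known to engage parts of the unfolded protein response as they differentiate.

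*Supt6*, which encodes the elongation factor SPT6, had 74.5, 56.6, 63.6, 91.1 and 96.7 CPM (counts scaled to a common library size, after TMM normalization) in the 5 controls. The 4 *Supt6*-KO mice had 28.6, 24.1, 21.9 and 28.4 CPM. All 4 lay under the lowest control, at 33.7% of the control level by the fitted fold change, in the direction the labels give. The log2 fold change was -1.57 (adjusted p = 1.3e-05, edgeR), -2.26 with library totals in place of TMM factors, and -0.73, -0.69 or -0.64 with a trend in transcript length removed (by the longest, implied or median transcript length, as described with the length trend). The gene shares 242 exonic bases with *Sdf2* on the opposite strand.

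Some libraries stood apart. Summed CPM of 4 suprabasal keratinocyte genes (*Krt1*, *Krt10*, *Krtdap* and *Dsg1a*, with *Krt10* the most abundant) was 17470 to 19070 in the controls and 39960, 38480 and 37450 in *Supt6*-KO mice 1 to 3. *Supt6*-KO mouse 4 had 18660, within the control range, and had the highest sum of 4 basal keratinocyte genes of all mice (13640). That mouse was also the highest *Supt6*-KO mouse for 5 of the 10 stress genes and the lowest for 4. Control mouse 5 was the lowest control for 7 of the 10 genes and had the highest sum of 5 fibroblast genes (6880, against 1762 to 3763 in the other controls). Where leaving out either mouse moved a value for the 10 genes by over 1.5 times or changed its call, both values are given.

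With edgeR's quasi-likelihood test and Benjamini-Hochberg adjustment over all genes, 6 of the 10 genes were higher in *Supt6*-KO skin at an adjusted p under 0.05, 1 was lower and 3 did not pass. The higher genes were *Atf4*, *Trib3*, *Dnajb9*, *Hspa5*, *Asns* and *Xbp1*, and the lower one was *Atf6*. *Ddit3*, *Chac1* and *Sesn2* did not pass. Changes of this kind were common in these libraries, as 34.1% of all genes tested were higher and 36.8% were lower by the same rule. At least 2-fold changes among the called genes were found for 3 of the 10 (*Atf4*, *Trib3* and *Dnajb9*, all higher), beside 20.9% of all genes higher and 24.9% lower. The median log2 fold change was 0.65 over the 10 genes and -0.07 over all genes. All 4 *Supt6*-KO mice lay above all 5 controls for 5 of the 10 genes and below them for 1, where the shares over all genes were 28.9% and 31.8%. In whole skin, fewer cells of a type and less RNA per cell cannot be told apart.

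**Figure D1:**
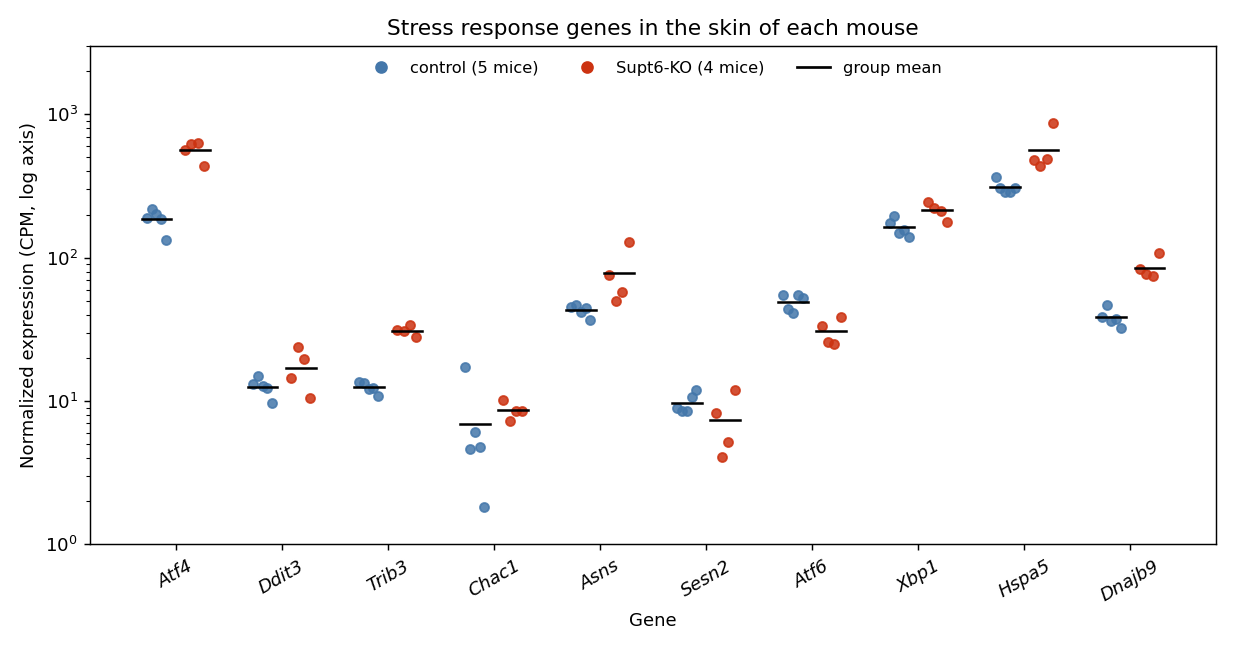
Normalized expression (CPM, logarithmic axis) of the 10 stress response genes in each of 5 control mice (blue) and 4 *Supt6*-KO mice (red), with replicates in numerical order from left to right and the group mean as a black line. *Atf4*, *Trib3*, *Asns*, *Hspa5* and *Dnajb9* had every *Supt6*-KO mouse above every control, *Atf6* had every *Supt6*-KO mouse below, and the groups overlapped for *Ddit3*, *Chac1*, *Sesn2* and *Xbp1*.

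*Atf4* (chromosome 15, 80255184 to 80257545, forward strand, GRCm38), the transcription factor at the centre of the integrated stress response, showed the largest rise of the 10 with TMM. Its level was 188, 219, 201, 185 and 133 CPM in the controls and 565, 623, 631 and 439 CPM in the *Supt6*-KO mice. The groups lay far apart, and the lowest *Supt6*-KO value, in mouse 4, was still above the highest control. The log2 fold change was 1.61 (SE 0.17, adjusted p = 8.6e-06, edgeR), a 3.05-fold rise, and a two-sided exact permutation test over the mice gave p = 0.0159, the smallest that 5 against 4 mice allow. Over all alternatives of scaling, transcript length and mice, the *Atf4* log2 fold change ran from 0.895 to 1.71. With the length trend removed by the longest transcript, *Atf4* was nearly level with *Hspa5*, as given with the ratios.

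*Ddit3* (chromosome 10, 127290793 to 127296291, forward strand) encodes CHOP, which ATF4 induces under lasting stress and which promotes cell death. It had 13.1, 15.0, 12.8, 12.4 and 9.75 CPM in the controls and 14.4, 23.7, 19.8 and 10.6 CPM in the *Supt6*-KO mice. *Supt6*-KO mice 2 and 3 were above all controls, mouse 4 was within them and mouse 1 was just under the highest control. The log2 fold change of 0.44 (SE 0.22) did not pass (adjusted p = 0.094, edgeR; exact permutation p = 0.19), and without *Supt6*-KO mouse 4 it was 0.61 and passed (adjusted p = 0.0098, edgeR). Without *Supt6*-KO mouse 2 it was 0.23 and did not pass (adjusted p = 0.35, edgeR). With the length trend removed it turned to -0.77, -0.74 or -0.61 (longest, implied or median transcript length). *Ddit3* then passed as lower in each version (adjusted p = 0.00072, 0.00092 and 0.0043, edgeR). *Ddit3* shares 68 exonic bases with the methionyl-tRNA synthetase gene *Mars1* on the opposite strand, and the strandedness of the counting is not given in the sources used here, so reads in that stretch may belong to either gene.

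*Trib3* (chromosome 2, 152337425 to 152344060, reverse strand), a pseudokinase that ATF4 and CHOP induce and that restrains ATF4, was the most even of the genes that rose. It had 13.6, 13.4, 12.2, 12.3 and 10.8 CPM in the controls and 31.2, 30.9, 33.7 and 28.0 CPM in the *Supt6*-KO mice. It rose by 1.31 on the log2 scale (SE 0.12, adjusted p = 2.8e-06, edgeR), with no overlap of the groups and a coefficient of variation of 9.2% among controls and 7.5% among *Supt6*-KO mice.

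Of the other ATF4 targets among the 10, *Asns* passed the test and *Chac1* and *Sesn2* did not. *Chac1* (chromosome 2, 119351242 to 119354326, forward strand), which degrades glutathione, had 17.3, 4.65, 6.06, 4.81 and 1.83 CPM in the controls and 10.1, 7.29, 8.51 and 8.55 CPM in the *Supt6*-KO mice. The controls spanned 9.42-fold, with control 1 above every *Supt6*-KO mouse and the other 4 controls below every one. The log2 fold change of 0.32 (SE 0.48) did not pass (adjusted p = 0.57, edgeR), and without control 1 it was 0.99 and passed (adjusted p = 0.015, edgeR). Without control 5, the lowest control, it was 0.07 (adjusted p = 0.88, edgeR), and without control 2 or control 4 it was 0.20 and 0.21. *Asns* (chromosome 6, 7675165 to 7693209, reverse strand), asparagine synthetase, had 45.4, 47.1, 42.1, 44.5 and 36.9 CPM in the controls and 75.3, 50.04, 57.5 and 129.7 CPM in the *Supt6*-KO mice. *Supt6*-KO mouse 2 was only slightly above the highest control and mouse 4 was far above the rest. The rise was 0.86 on the log2 scale (SE 0.24, adjusted p = 0.0071, edgeR), and 0.49 without *Supt6*-KO mouse 4, which still passed. With library totals in place of TMM factors the *Asns* change was 0.23 and did not pass (adjusted p = 0.51, edgeR). *Sesn2* (chromosome 4, 132492804 to 132510456, reverse strand), which encodes sestrin 2, an inhibitor of mTORC1 signaling, had 8.96, 8.54, 8.58, 10.7 and 12.0 CPM in the controls and 8.27, 4.08, 5.21 and 11.9 CPM in the *Supt6*-KO mice. *Supt6*-KO mice 1 to 3 were below all controls and mouse 4 was just under the highest control. Its log2 fold change was -0.40 (SE 0.28, adjusted p = 0.21, edgeR), and without mouse 4 it was -0.74 and passed (adjusted p = 0.013, edgeR). Without *Supt6*-KO mouse 2 it was -0.22 (adjusted p = 0.46, edgeR). Over all alternatives of scaling, transcript length and mice, the *Sesn2* change ran from -1.04 to -0.02, so its size depended on the processing.

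Of the genes for the ER arms, *Atf6* was lower and *Xbp1* higher with TMM, and both calls depended on transcript length, as given with the length trend. *Atf6* (chromosome 1, 170704457 to 170868585, reverse strand), the membrane-bound sensor that is cut to a transcription factor, had 54.9, 43.9, 41.4, 54.6 and 52.2 CPM in the controls and 33.6, 26.0, 25.2 and 38.9 CPM in the *Supt6*-KO mice. No *Supt6*-KO mouse reached the lowest control, and the log2 fold change was -0.68 (SE 0.16, adjusted p = 0.0023, edgeR), which turned to 0.20, 0.30 or 0.29 and did not pass with the length trend removed (longest, implied or median transcript length). *Xbp1* (chromosome 11, 5520641 to 5525993, forward strand), whose mRNA IRE1 splices into the active form, had 175, 195, 148, 156 and 139 CPM in the controls and 245, 223, 212 and 177 CPM in the *Supt6*-KO mice. *Supt6*-KO mice 1 to 3 were above every control, and mouse 4 lay within the controls. The log2 fold change was 0.40 (SE 0.14, adjusted p = 0.024, edgeR). This call was lost when control 3, control 4, control 5, *Supt6*-KO mouse 1 or *Supt6*-KO mouse 2 was left out (log2 fold change 0.33 to 0.38, adjusted p = 0.050 to 0.075, edgeR).

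Both ER chaperone genes among the 10 rose with TMM. *Hspa5* (chromosome 2, 34772090 to 34776529, forward strand), which encodes the main ER chaperone BiP, had 366, 305, 286, 289 and 308 CPM in the controls and 480.3, 435, 485 and 872 CPM in the *Supt6*-KO mice. Every *Supt6*-KO mouse exceeded every control, and mouse 4 stood far above the other 3. The fitted change was 0.87 on the log2 scale (SE 0.21, adjusted p = 0.0026, edgeR) and 0.58 without mouse 4. With library totals in place of TMM factors it was 0.22 and did not pass (adjusted p = 0.46, edgeR). *Dnajb9* (chromosome 12, 44205897 to 44210068, reverse strand), the BiP cochaperone ERdj4 and a target of spliced XBP1, had 38.8, 46.6, 36.0, 37.5 and 32.4 CPM in the controls and 82.9, 76.8, 74.1 and 107.6 CPM in the *Supt6*-KO mice. All 4 *Supt6*-KO mice were well above the controls, with a log2 fold change of 1.16 (SE 0.14, adjusted p = 2.6e-05, edgeR). *Dnajb9* shares 14 exonic bases with *Mir5627* on the opposite strand.

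The order of levels was compared per length, in TPM (a length-corrected share of transcripts) computed from the counts and the longest GENCODE transcript of each gene. In the controls *Atf4* (282 ± 27.6 TPM, SD, n = 5), *Hspa5* (225 ± 32.9) and *Xbp1* (202 ± 19.6) led. *Asns* (56.7 ± 3.53), *Dnajb9* (41.1 ± 3.39), *Ddit3* (37.2 ± 2.89), *Atf6* (18.3 ± 3.63), *Trib3* (16.3 ± 1.11), *Chac1* (11.1 ± 9.75) and *Sesn2* (7.55 ± 1.91 TPM) followed. The intervals of mean ± SD overlapped between neighbours in this order except from *Xbp1* to *Asns*, from *Asns* to *Dnajb9* and from *Ddit3* to *Atf6*. In the TPM values the authors deposited for the controls, *Hspa5* (mean 222.4) and *Atf4* (221.2) were level, and *Trib3* (11.4) and *Atf6* (11.1) changed places. In the *Supt6*-KO mice *Atf6* (5.26 ± 2.28 TPM, SD, n = 4) stood at rank 9 in place of 7, though it overlapped with *Chac1* (6.32 ± 1.78) at rank 8. *Asns* (49.7 ± 34.8) and *Dnajb9* (42.5 ± 17.7) had no firm order there, with *Asns* the higher in *Supt6*-KO mice 1 and 4 and the lower in mice 2 and 3. TPM carries no TMM factor and is a share of a length-weighted total, so differences between the groups on this scale need not follow those in CPM. On it every *Supt6*-KO mouse lay below every control for *Xbp1* (118 ± 19.2 TPM, SD, n = 4) and *Ddit3* (21.7 ± 3.39), whereas in TMM-normalized CPM the groups overlapped and the fold changes of both were positive. For *Hspa5* (158, 116, 135 and 369 TPM) and *Asns* (45.2, 24.3, 29.2 and 100 TPM), *Supt6*-KO mice 1 to 3 lay below every control and mouse 4 above. In CPM every *Supt6*-KO mouse was above every control for both genes. *Trib3* and *Dnajb9*, also without overlap in CPM, overlapped between the groups in TPM.

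Ratios within a mouse do not depend on how libraries are scaled, though they do depend on a trend with transcript length, and 4 were compared by two-sided exact permutation tests. The log2 ratio of *Ddit3* to *Atf4* was -3.87 ± 0.08 (SD, n = 5) in the controls and -5.10 ± 0.30 (n = 4) in *Supt6*-KO skin, a 2.33-fold fall (exact permutation p = 0.0159, adjusted over the 4 ratios p = 0.0317). All *Supt6*-KO mice lay below all controls, so *Ddit3* was lower relative to *Atf4* in each of them. The log2 ratio of *Xbp1* to *Atf6* went from 1.72 ± 0.29 to 2.81 ± 0.42, again without overlap and with the same p-values from the exact test. This pair sets a transcript of 2129 bases against one of 7246 bases, and with the length trend removed *Xbp1* and *Atf6* had log2 fold changes of 0.21 and 0.20 (longest transcript), 0.30 and 0.30 (implied lengths) or -0.04 and 0.29 (median transcript), so the difference was gone or turned. For *Ddit3* and *Atf4* they were -0.77 and 1.19 with the longest transcript, in the same order as before. For *Trib3* to *Atf4* the difference was -0.30 (exact permutation p = 0.0476, adjusted p = 0.0635). For *Dnajb9* to *Hspa5* it was 0.34 (exact permutation p = 0.0952, adjusted p = 0.0952). Neither of the last 2 passed after adjustment, and without *Supt6*-KO mouse 4 the difference for *Dnajb9* to *Hspa5* was 0.44 (unadjusted exact permutation p = 0.0357). With the length trend removed by the longest transcript, *Trib3* and *Atf4* were at 1.07 and 1.19, and *Dnajb9* and *Hspa5* at 1.095 and 1.16. Both differences were then smaller in size.

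Scaling and transcript length bear on these values. TMM factors were 1.198 to 1.315 in the controls and 0.674 to 0.91 in the *Supt6*-KO mice. With library totals in their place the median over all genes moved to -0.76 (log2), 16.9% of genes were higher and 54.6% lower, and of the 10 genes 3 were higher (*Atf4*, *Trib3*, *Dnajb9*) and 2 lower (*Sesn2*, *Atf6*). *Ddit3* (-0.30), *Chac1* (-0.37) and *Xbp1* (-0.31) then had negative log2 fold changes. Taken relative to the median of all genes, the 10 genes had the same sign under both scalings, with *Atf4* at 1.68 under TMM and 1.65 under library totals and *Atf6* at -0.60 and -0.59.

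Across 14548 genes with a mean of at least 10 counts, the log2 fold change fell with transcript length (Pearson r = -0.32 and Spearman rho = -0.41 across genes, which are not independent replicates and share the same libraries). The median log2 fold change was 1.38 for transcripts of 300 to 1000 bases and -1.08 for those over 8000 bases. The 10 genes span this range, from 890 bases for *Ddit3* to 7246 bases for *Atf6*. With the length trend removed from each library, 34.9% of genes were higher and 32.5% lower, and of the 10 genes 5 were higher (*Atf4*, *Trib3*, *Dnajb9*, *Hspa5* and *Asns*). *Ddit3* was then lower (log2 fold change -0.77, adjusted p = 0.00072, edgeR), *Atf6* was at 0.20 (adjusted p = 0.18, edgeR) and *Xbp1* at 0.21 (adjusted p = 0.15, edgeR). With the median transcript in place of the longest, *Ddit3* was at -0.61 and passed, *Atf6* was at 0.29, *Xbp1* was at -0.04, and the latter pair did not pass. With lengths implied by the deposited counts and TPM, *Xbp1* was at 0.30 and passed (adjusted p = 0.047, edgeR). The part of RNA quality or library preparation in the length trend was not tested.

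**Figure D2:**
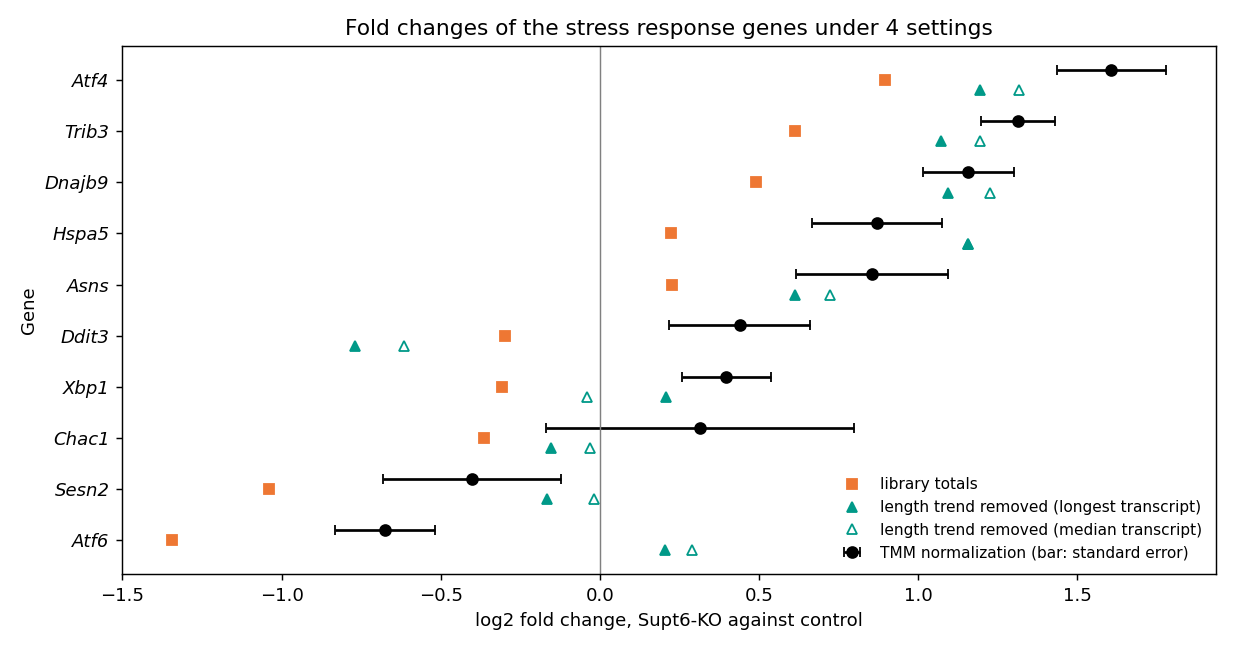
Log2 fold change of the 10 genes (*Supt6*-KO against control) with TMM normalization (black, bar: standard error), with library totals (orange squares) and with the length trend removed using the longest (filled triangles) or median (open triangles) transcript; for *Hspa5* the triangles coincide. *Atf4*, *Trib3*, *Dnajb9*, *Hspa5* and *Asns* stayed above 0 in all 4 settings, whereas *Ddit3*, *Chac1*, *Xbp1* and *Atf6* changed sign in at least 1.

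**Figure D3:**
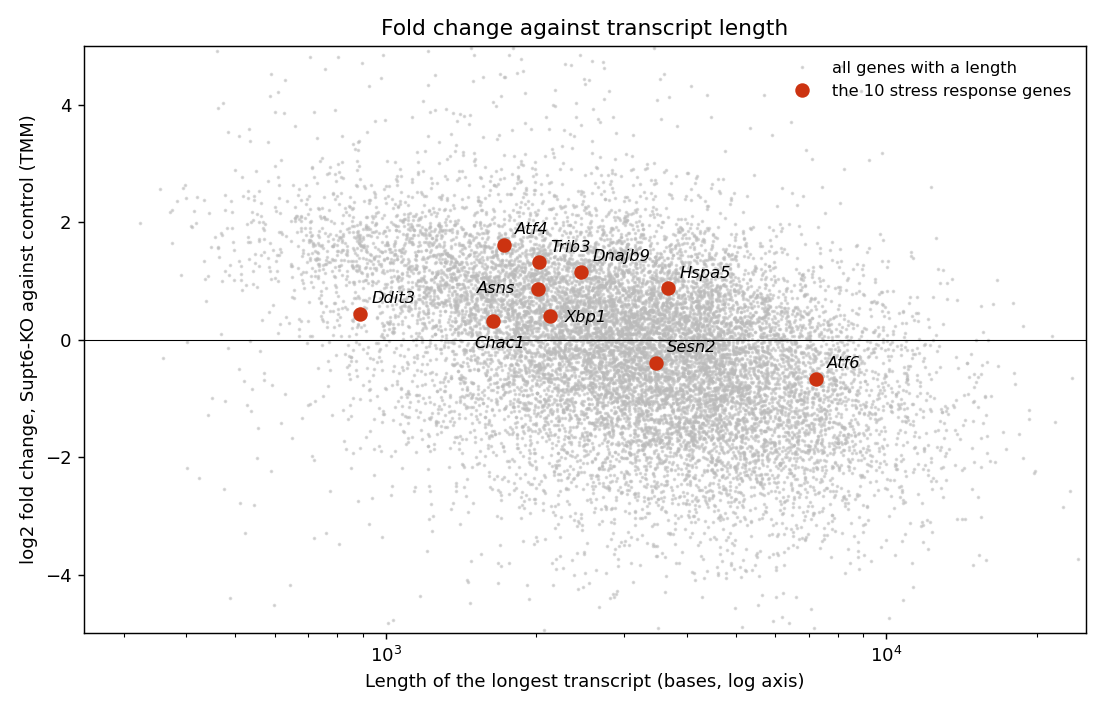
Log2 fold change (TMM) against the length of the longest transcript in bases (logarithmic axis) for 14548 genes (grey), of which 259 lie outside the axes, with the 10 stress response genes in red. Short transcripts lie higher than long ones in the median. *Ddit3*, the shortest of the 10, and *Atf6*, the longest, lie at opposite ends of the length axis, though *Ddit3* is not the highest of the 10.

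Promoter sequence was examined for 9 of the 10 genes, those matched in the table of RefSeq promoters used here (GRCm38.p6, 250 bases before to 50 after the start), and *Atf6* was not examined. Exact matches were sought on both strands to the core of the C/EBP-ATF response element (CARE, TGATGNAA), the core of the unfolded protein response element (UPRE, TGACGTGG) and the ER stress response element (ERSE, CCAAT, any 9 bases, then CCACG). The CARE core was in 3.97% of 32851 promoters, the UPRE core in 0.68% and the ERSE in 0.12%. Among the 9 genes the CARE core was found in *Trib3*, *Chac1* and *Asns*, the ERSE in *Hspa5* and the UPRE core in none. The matches before the start site are shown for the ATF4 targets *Chac1* and *Asns* and for the chaperone gene *Hspa5*. Each is on the strand of its gene with the match in capitals, at chr2:119351029-119351076 (forward), chr6:7693210-7693252 (reverse) and chr2:34772005-34772063 (forward).
Chac1: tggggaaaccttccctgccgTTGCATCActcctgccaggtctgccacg
Asns: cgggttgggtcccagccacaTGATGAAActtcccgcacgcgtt
Hspa5: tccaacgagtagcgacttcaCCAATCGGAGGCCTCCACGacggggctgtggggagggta
The *Chac1* match is the reverse complement of the core and begins 193 bases before the start, and the *Asns* match begins 23 bases before it. A match in the sequence is a description and does not show binding. The *Trib3* match begins 14 bases after the start. Of the genes with a match, *Trib3*, *Asns* and *Hspa5* were called higher with TMM and *Chac1* did not pass. Of those without one, *Atf4*, *Dnajb9* and *Xbp1* were called higher, and *Ddit3* and *Sesn2* did not pass.

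The genes that sense stress were mostly lower with TMM. Of 8 tested UPR sensor and eIF2 kinase genes, 7 were lower and 1 was higher, with a median log2 fold change of -0.85, where 36.8% of all genes were lower. The IRE1 gene *Ern1* (-0.98), the kinase genes *Eif2ak1* (HRI, -0.71), *Eif2ak2* (PKR, -0.51), *Eif2ak3* (PERK, -1.05) and *Eif2ak4* (GCN2, -0.995), the *Atf6* relative *Atf6b* (-0.31) and *Mbtps1* (-1.10), the site-1 protease that cuts ATF6, were lower. *Mbtps2* (0.37), the site-2 protease, was higher (relative to the median of all genes, 0.45 under both scalings, and -0.31 itself with library totals). With the length trend removed it was at 0.91 (longest transcript), 0.995 (implied lengths) or 0.87 (median transcript). *Ern2* had too few counts to be tested. These transcripts are long (median 4425 bases), and with the length trend removed 4 of 8 were lower and 1 higher, and 5 were lower with lengths implied by the deposited values, where 32.5% of all genes were lower with the longest transcript. With the longest transcript *Eif2ak1* (-0.29, adjusted p = 0.087, edgeR) and *Eif2ak2* (-0.09, adjusted p = 0.57, edgeR) lost their calls, and *Eif2ak3* (-0.57), *Eif2ak4* (-0.35) and *Mbtps1* (-0.67) kept theirs. *Eif2ak1* passed with implied lengths (-0.70, adjusted p = 0.0013, edgeR) and did not with the median transcript (-0.12, adjusted p = 0.46, edgeR). *Eif2ak4* did not pass with implied lengths (-0.31) or the median transcript (-0.27). *Ern1* then depended on the length used, at -0.12 with the longest transcript (adjusted p = 0.54, edgeR), -0.54 with the implied length (adjusted p = 0.014, edgeR) and -1.58 with the median transcript. *Atf6b* lost its call without control 1, control 2, *Supt6*-KO mouse 2 or *Supt6*-KO mouse 3 (log2 fold change -0.295 to -0.267).

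The translation factor itself and the genes that reverse its phosphorylation were higher with TMM. Of 11 genes for eIF2, its exchange factor eIF2B, the eIF2 phosphatase and *Dnajc3*, an ER cochaperone and inhibitor of eIF2 kinases, 10 were higher and none lower, where 34.1% of all genes were higher, and *Dnajc3* did not pass. *Eif2s1*, which encodes the phosphorylated subunit eIF2alpha, rose by 2.18 on the log2 scale (74.4 to 337.7 CPM), *Eif2s2* by 1.92 and the eIF2B subunit gene *Eif2b1* by 1.00. With library totals 2 of the 11 were higher, close to the 16.9% over all genes, and with the length trend removed 10 were, where 34.9% of all genes were.

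Other genes linked to ATF4 gave no single direction. Of 13 further transcription factors and stress effectors, 2 were higher, 3 lower and 8 did not pass, which are smaller shares than over all genes (34.1% and 36.8%). *Eif4ebp1*, a repressor of cap-dependent translation, rose by 2.12 on the log2 scale (1.87 with the length trend removed by the longest transcript and 1.14 by implied lengths). The ATF4 partner *Cebpg* was higher by 0.65 (at -0.05 with library totals, and relative to the median of all genes 0.73 and 0.71, with 1.17 and 1.25 when the length trend was removed by the longest transcript and by implied lengths), and *Vldlr*, a lipoprotein receptor gene, was at -1.66 (-0.72 and -0.61 with the length trend removed by the same lengths). Of 13 enzymes of amino acid synthesis and one-carbon metabolism, 7 were higher and 3 lower. *Psat1* (2.24) and *Psph* (1.53, and 0.90 with the length trend removed by the median transcript), which make serine, and *Cth* (1.64, and 1.24 without *Supt6*-KO mouse 4), which makes cysteine, rose on the log2 scale. *Cbs* (-2.18, and -1.39 with the length trend removed by the longest transcript), the enzyme before *Cth* in that pathway, *Pycr1* (-1.36), of proline synthesis, and *Got1* (-1.11), an aspartate aminotransferase, were lower.

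Of 9 amino acid transporters, 1 was higher, 4 were lower and 4 did not pass, and with the length trend removed 3 were lower. Both counts of lower genes are close to the shares over all genes (36.8% and 32.5%). *Slc7a11*, the cystine importer, rose from 9.78 to 81.6 CPM (log2 fold change 3.06), with every *Supt6*-KO mouse above every control. The glycine transporter *Slc6a9* (-2.53), the neutral amino acid transporters *Slc1a5* (-1.38) and *Slc1a4* (-0.88, and -0.52 with the length trend removed) and *Slc38a2* (-0.48) were lower, the last at 0.03 with the length trend removed. *Slc7a5* (-0.88), *Slc3a2* (-0.33), *Slc7a1* (-0.56) and *Slc7a3* (-0.44) did not pass, and *Slc7a5* (-1.51), *Slc3a2* (-0.54) and *Slc7a1* (-1.12) did without *Supt6*-KO mouse 4. Of 13 genes for cytosolic tRNA synthetases and tRNA export, 6 were higher and 1 lower, where 34.1% of all genes were higher. With library totals 0 were higher and 5 lower, where 16.9% of all genes were higher and 54.6% lower. *Gars* (0.76), *Cars* (0.65) and *Sars* (0.56), for glycine, cysteine and serine, were the highest on the log2 scale by the rule for named genes. *Cars* (-0.015) and *Sars* (-0.13) were negative with library totals, and relative to the median of all genes stood at 0.73 and 0.74 (*Cars*) and 0.63 and 0.63 (*Sars*) under TMM and library totals. *Sars* was at 0.93 with the length trend removed by implied lengths. Without *Supt6*-KO mouse 4, 7 of the 13 were lower, where 6406 of all 16426 genes tested were, against 6050 with all mice.

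ER folding and translocation genes included more higher genes than lower ones. Of 15 chaperone and folding genes, 9 were higher and 1 lower (median log2 fold change 0.88). *Sdf2l1* (1.88), *Ppib* (1.60), a prolyl isomerase of the ER, and *Manf* (1.58), a secreted ER stress protein, led. With the length trend removed by the longest transcript they were at 0.96, 0.42 and 1.44, and *Manf* was at 0.48 with implied lengths. *Sil1*, the exchange factor of BiP, was the lower one (-0.39, and -0.83 with the length trend removed). Of 14 genes of ER-associated degradation, which sends misfolded proteins to the proteasome, 6 were higher and 4 lower (median 0.09), close to the 34.1% and 36.8% over all genes. *Derl2* (1.17), *Selenos* (1.08) and *Derl1* (1.05) of the export channel were higher. *Os9* (-1.51), *Sel1l* (-1.17) and *Syvn1* (-0.82), which form the HRD1 ligase with its lectin, were lower. With the length trend removed by the longest transcript *Selenos* (0.22) and *Sel1l* (-0.37) did not pass, *Syvn1* was at -0.58, and *Derl2* was at 0.70 with the median transcript. Of 15 translocation and secretory genes, 9 were higher and 1 lower (median 1.05). *Sec61g* (2.99) and *Sec61b* (2.32), small subunits of the translocon, and *Ssr4* (2.44) led, while the vesicle coat gene *Sec31a* was at -1.60. *Sec61b* and *Ssr4* are short transcripts (564 and 800 bases) and were at 0.72 and 1.14 with the length trend removed, and *Sec61g* was at 1.69 with implied lengths.

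**Figure D4:**
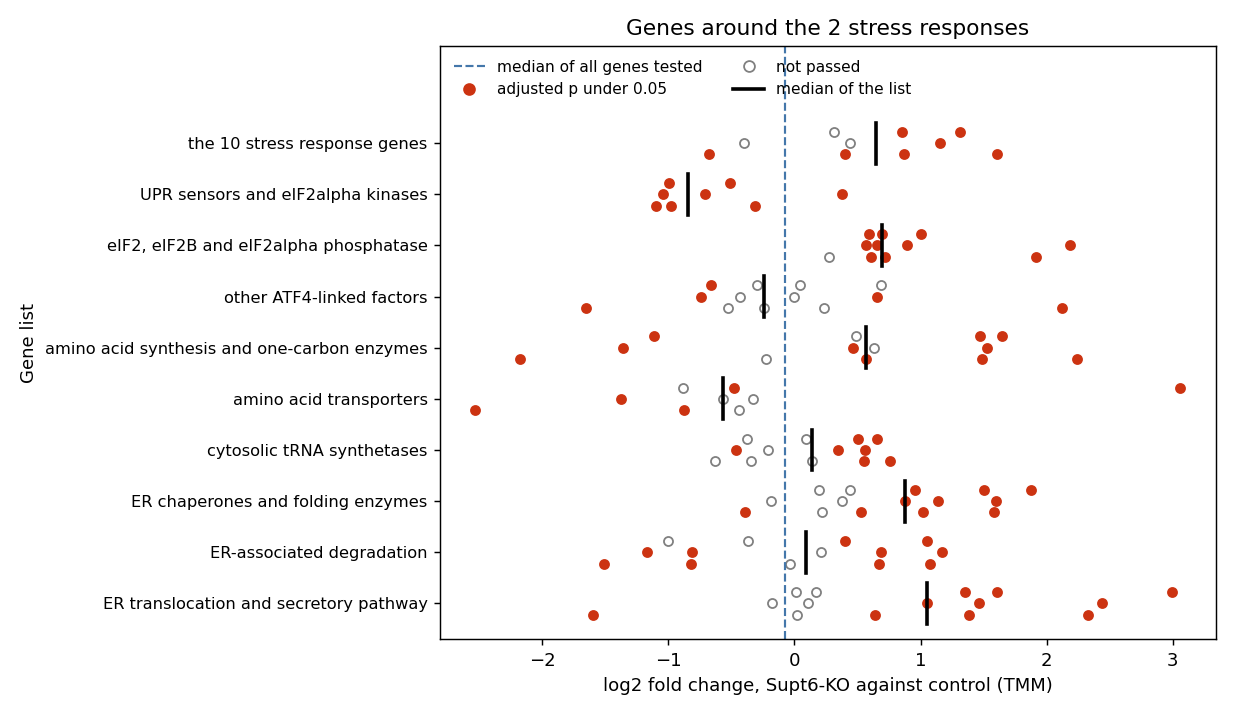
Log2 fold change (*Supt6*-KO against control, TMM) of each tested gene in the list of 10 and in 9 related lists, filled where the adjusted p was under 0.05, with the median of each list (black bar) and of all genes tested (dashed line, -0.07). The sensors and eIF2 kinases lie mostly below the median of all genes, and the genes for eIF2, eIF2B and the phosphatase lie above it.

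Markers of some other cells moved with the groups, and their part in the values above was not tested. Their counts stand against 34.1% of all genes higher and 36.8% lower. All 5 skeletal muscle genes were lower, with summed CPM of 3080 to 4002 in the controls and 503.8 to 673 in the *Supt6*-KO mice and *Acta1* the most abundant. Of 5 fibroblast genes 4 were lower, with *Col1a2* the most abundant and summed CPM of 913.6 to 1358 in the *Supt6*-KO mice. Of 5 tested neutrophil genes *Csf3r*, *Cxcr2*, *Ly6g* and *Retnlg* were higher and *Mpo* lower, with summed CPM of 4.18 to 9.36 in the controls and 24.0 to 76.8 in the *Supt6*-KO mice, *Retnlg* the most abundant, and *Elane* had 3 counts in all. *Ly6g* had 21 counts in all, with 0 in 5 mice, and *Mpo* had 67, with 0 in 3 mice, so both calls rest on few reads. Of 5 macrophage genes 3 were higher and 1 lower (65.9 to 166.6 CPM in the controls and 131.1 to 167.2 in the *Supt6*-KO mice, *Mrc1* the most abundant). The highest control sum of these was in control 5, and the other 4 controls, at 65.9 to 94.9 CPM, lay below every *Supt6*-KO mouse. Of 5 sebocyte genes 3 were lower (132.2 to 193.6 and 30.9 to 106.8 CPM, *Awat1* the most abundant). Plasma cells, which use *Xbp1* and *Hspa5* heavily, were represented by 5 tested genes, of which 2 were higher, near the share over all genes and each with overlapping groups, at a summed 0.35 to 0.58 CPM in the controls and 0.67 to 3.49 CPM in the *Supt6*-KO mice, *Pou2af1* the most abundant. Of the 4 basal keratinocyte genes 3 were lower and of the 4 suprabasal genes 2 were higher.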

How the data were processed

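RNA-Seq libraries of 5 control and 4 *Supt6*-KO mice were analysed. The authors aligned paired reads with Bowtie2 2.3.4.3 to mm10 and used RSEM 1.3.1 for the estimated counts they deposited, with TPM values for 6 mice (tools and versions per the submitters' processing notes, which also list HISAT and DESeq2 1.4.5). The annotation release is not given in the sources used here. About 9% of the estimated counts were not whole, and all were rounded. The deposited TPM values served for lengths implied by counts over TPM, used in 1 length alternative, and to check the order of levels in the controls. Of the identifiers, 17850 matched a RefSeq gene and 93 did not.

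Genes with a sum under 10 counts over the mice were left out. Groups were compared with edgeR 4.0.16 (R 4.3.3, TMM, quasi-likelihood test, no covariates), with Benjamini-Hochberg adjustment over the 16426 genes tested. SE is the absolute log2 fold change over the root of F. Depth was 29627341 to 30967107 counts, and counting error alone allows up to 3 counts behind a 0. Tests were tried on simulated data. Python 3.11.15, pandas 2.3.3 and scipy 1.17.1 were used for summaries and exact permutation tests.

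The members and lists were chosen with earlier results of these data known. Named genes were *Supt6*, the 10 members, all genes of lists of 9 or fewer, and in longer lists up to 3 per direction that passed the test, ranked by size of change, with groups that did not overlap and a mean of 1 CPM or more in the group with more. Markers are named as lists.

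Alternatives were DESeq2 1.42.0, its size factors in edgeR, library totals, removal of the 50 most abundant genes, other filters, a replicate block, removal of the length trend, and each mouse left out. The length alternative was first run with the median GENCODE transcript, and its results were seen. The longest transcript then replaced it, because across genes it followed the lengths implied by the deposited counts and TPM more closely (r = 0.905 against 0.863 on a log scale), and both versions, and one with the implied lengths, are reported.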

Additional observations from a re-analysis of the deposited data

Results flagged for a closer look

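In groups of 4 or 5 mice, 3 values for the 10 genes, *Supt6* and the 4 ratios lay far from the rest of their group by Dixon's test, out of 30 groups examined, where chance gives about 1.5. *Chac1* was at 17.3 CPM in control 1, against a control median of 4.81 CPM. *Hspa5* was at 366 CPM in control 1, against a control median of 305 CPM. *Hspa5* was also at 872 CPM in *Supt6*-KO mouse 4, against a *Supt6*-KO median of 483 CPM.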

How the results depend on the processing

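The counts of genes in each direction kept within 1.5 times of their values under DESeq2, removal of the 50 most abundant genes and no filter. With library totals, 2771 genes (16.9% of all genes) were higher and 8970 (54.6%) lower, with 1470 at least 2-fold higher and 6802 at least 2-fold lower. The counts that follow stand against these shares. Of the 10 genes 3 were higher and 2 lower. Higher and lower genes in the lists then numbered 0 higher for the sensors, 2 higher for eIF2 and eIF2B, 1 and 8 for the other ATF4-linked genes, 3 higher for amino acid synthesis, 7 lower for transporters, 0 and 5 for tRNA synthetases, 4 and 3 for chaperones, 3 and 7 for ER-associated degradation, and 5 lower for translocation. *Ddit3* (-0.30), *Chac1* (-0.37), *Xbp1* (-0.31), *Mbtps2* (-0.31), *Cebpg* (-0.05), *Cars* (-0.015) and *Sars* (-0.13) changed sign. This scaling lowers all genes by a similar amount, and relative to the median of all genes these 7 kept a positive sign under both scalings.

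With the length trend removed by the longest transcript, 4 sensors, 5 other ATF4-linked genes and 0 tRNA synthetases were lower, where 32.5% of all genes were. *Ddit3* (-0.77), *Chac1* (-0.15), *Atf6* (0.20), *Slc7a1* (0.31) and *Slc38a2* (0.031) then changed sign. The versions added after the data were seen gave, with the median transcript, 4 sensors and 0 tRNA synthetases lower and sign changes for *Ddit3* (-0.61), *Chac1* (-0.03), *Atf6* (0.29), *Xbp1* (-0.039), *Eif2ak2* (0.077), *Slc7a1* (0.40) and *Slc38a2* (0.19). With implied lengths they gave 6 other ATF4-linked genes, 2 transporters and 0 tRNA synthetases lower and sign changes for *Ddit3* (-0.74), *Chac1* (-0.13), *Atf6* (0.30), *Eif2ak2* (0.004), *Slc7a1* (0.38) and *Slc38a2* (0.11). *Ern1* was at -0.12, -1.58 and -0.54 in these 3 versions. Over all genes tested, 5267 were lower with the median transcript and 5061 of 14631 with implied lengths. The causes were not tested.

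Lower tRNA synthetases numbered 0 with DESeq2 size factors in edgeR and 2 when every mouse had to have 10 counts or more. With each mouse left out, the 10 genes had 1 to 2 lower, transporters 4 to 7, tRNA synthetases 0 to 7 and chaperones 1 to 2, each with its highest count without *Supt6*-KO mouse 4. Over all genes 6406 were lower without that mouse, against 6050 with all mice. The log2 ratio of *Dnajb9* to *Hspa5* was 0.27 to 0.44 and that of *Trib3* to *Atf4* -0.37 to -0.23, and the latter's unadjusted exact permutation p was under 0.05 in the full set and without *Supt6*-KO mouse 4, while that of *Dnajb9* to *Hspa5* was under 0.05 (p = 0.0357) without *Supt6*-KO mouse 4 alone. Same-numbered mice deviated together only weakly (r = -0.007 to 0.197, 4 pairs), so the numbers are taken as shared labels. With them as a replicate block over 8 mice, 5260 genes were higher and 5799 lower, 6 of the 10 genes were higher and 1 lower, 7 transporters were lower and 2 tRNA synthetases were lower. At this depth, *Slc7a3*, *Gdf15*, *Fgf21* and *Derl3* were under 0.3 CPM and their fold changes are imprecise.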
